A study of Homo sapiens with 12 samples.

Results

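The sites described here are the strongest FoxK1 binding regions that every library had in common. A region belongs to them when its best peak ranked 1000 or better by −log10 q, the deposited significance of a peak, in each of 6 peak lists from HepG2 cells. Of 68127 merged regions, 542 met this rule. Of the 15887 regions called in all 6 lists they were 3.41%. The sites were thus chosen by the −log10 q ranks, which are given as a description. Summit position, peak width and spread over chromosomes were not used by the rule. The −log10 q of a peak depends on its fragments and background, so these traits need not be independent of the choice.

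HepG2 is a human liver cancer line that serves as a hepatocyte model. The insulin group had 100 nM insulin for 20 min, and the untreated group had none. All cells had first been kept for 16 h in medium without serum. Each group had 3 libraries from chromatin immunoprecipitation with a FoxK1 antibody, and the 6 input libraries were not analysed here. The labels do not say that replicates came from separate cultures, so each p-value speaks of library-to-library spread, which may be technical.

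FoxK1 is a forkhead transcription factor, a protein that binds DNA through a winged-helix domain and often acts as a repressor. It is known for control of autophagy and glucose metabolism genes, and insulin signalling through AKT and mTOR is known to change how much of it is in the nucleus. In a peak list, the summit is the base where the most fragments pile up and is the nearest estimate of the contact point. The genome was hg19 and the coordinates below are 1-based in that build. No gene names or sequences are given, because the annotation and sequence tables used here are on another build.

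The lists held 48208, 45057 and 27503 peaks in insulin replicates 1, 2 and 3, and 44687, 31668 and 26082 in untreated replicates 1, 2 and 3. Peak lists carry no total read number, so sequencing depth is unknown here. The number of fragments at each summit could be worked out from the deposited fold and p. At the 542 sites its median was 282.5, 386.5 and 114 fragments after insulin and 361.5, 202 and 104 without it. The weakest of these summits had 146, 203 and 64 fragments after insulin and 182, 101 and 58 without it. Counts were lowest in the replicate 3 libraries of both treatments, with a minimum of 58 fragments. A high minimum follows in part from the choice by −log10 q, which grows with fragment number. The median fold enrichment that the authors gave at the sites was 38.0, 34.97 and 22.6 after insulin and 19.6, 16.1 and 17.4 without it. Fold values depend on the background estimated in each list and are not compared between lists.

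From a limit of 50 upward, between 52.45% and 57.0% of the limit was common to all lists. The rule gave 4 regions at a limit of 10 (40%), 10 at a limit of 20 (50%), 56 regions at a limit of 100, 285 at a limit of 500, 542 at a limit of 1000, 1049 at a limit of 2000 and 5547 at a limit of 10000. The last 5 were 56.0%, 57.0%, 54.2%, 52.5% and 55.5% of the limit. At the 1000 limit, 666 regions qualified in all 3 insulin lists and 645 in all 3 untreated lists. Thus 81.4% of those strong after insulin and 84.0% of those strong without it were among the 542 sites. A further 166 regions qualified in 5 lists and missed in 1, all of them called in that list as well. Insulin replicates 1, 2 and 3 were the list that missed for 33, 11 and 38 of these, and untreated replicates 1, 2 and 3 for 23, 30 and 31. No single library therefore set the size of the group. Leaving out each in turn gave between 553 and 579 sites. This largely restates the same counts, since a region missed only in the list left out then qualifies.

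The site at the head of the lists was chromosome 17, 66452189 to 66454730. It ranked 1st, 1st and 1st in the insulin lists and 1st, 2nd and 1st in the untreated lists. Its summit held 1345, 1922 and 470 fragments after insulin and 1610, 1015 and 453 without it. The summit fell on base 66453997 in insulin replicates 1 and 2 and in all 3 untreated libraries, and on base 66453995 in insulin replicate 3. Next, at chromosome 19, 41902683 to 41903963, the ranks were 2, 4 and 2 after insulin and 5, 4 and 2 without it. The 6 summits there lay between 41903358 and 41903361. Both sites were named for their low mean rank over all 6 lists, so alike ranks with and without insulin largely follow from that choice. Their summits were at most 3 bp apart.

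Chromosome 7, 106808095 to 106810684, ranked 3, 3 and 4 after insulin and 2, 3 and 4 without it. Its 6 summits were spread over 28 bp, a wider span than at the sites of chromosomes 17 and 19 above. At chromosome 19, 30334867 to 30336691, the ranks were 6, 2 and 6 after insulin and 3, 1 and 3 without it, within 7 bp. Chromosome 16, 12070034 to 12070933, was the narrowest of the 10 sites with the lowest mean rank, at 900 bp. Its ranks were 4, 5 and 11 after insulin and 6, 7 and 12 without it, and its summits differed by 2 bp. Chromosome 17 held another 2 of the 10, at 79366929 to 79368365, ranked between 3 and 16, and at 58754212 to 58755769, ranked between 4 and 32. Chromosome 2 also held 2, at 32502447 to 32503545 with ranks between 7 and 18 and a summit span of 37 bp, and at 54013440 to 54015582 with ranks between 8 and 18 and a span of 3 bp. The last, on chromosome 8 at 95907247 to 95909299, ranked 16, 12 and 13 after insulin and 8, 10 and 6 without it, with summits within 2 bp. It was the only one of the 10 whose insulin and untreated ranks did not overlap.

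The limit itself marks no break in the data. The 5 sites just inside it had worst ranks between 991 and 997, and the 5 regions just outside between 1001 and 1010. At chromosome 19, 4968318 to 4969600, just inside, insulin replicate 1 gave rank 997 and the other insulin lists 311 and 617, while the untreated lists gave 273, 318 and 307. At chromosome 1, 151762359 to 151764193, just outside, the insulin ranks were 329, 859 and 1001 and the untreated ranks 466, 710 and 369.

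Summits agreed closely at these sites. The 6 summits of a site spanned a median of 31 bp, with 75.3% of sites within 50 bp and 33.4% within 20 bp. In the other 15345 regions called in all 6 lists the median span was 97 bp, with 18.8% within 50 bp and 2.43% within 20 bp. Measured per library, the median distance of a summit from the median of the other 5 libraries was 6, 5 and 9 bp in insulin replicates 1, 2 and 3 and 6, 7 and 9 bp in untreated replicates 1, 2 and 3. The same value in the other shared regions was 23, 21 and 33 bp in the insulin libraries and 22, 27 and 35 bp in the untreated libraries. The sites were thus closer in 6 of 6 libraries, at 7 ± 1.67 bp against 26.8 ± 5.95 bp (SD, n = 6). The mean difference of -19.8 bp gave p = 0.031 by exact sign-flipping of the 6 library differences (two-sided), the smallest value possible. The libraries share each other's summits in this measure, and the choice by −log10 q favours summits with more fragments.

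The agreement changed with rank even within the group. The 56 sites with a worst rank of 100 or better had a median span of 10.5 bp. The median was 17 bp for worst ranks 101 to 250, 31 bp for 251 to 500, 37 bp for 501 to 750 and 42 bp for 751 to 1000. Just outside, the 507 regions with worst ranks 1001 to 2000 had a median span of 44 bp, so the sites near the limit differed little from their neighbours. Against these neighbours, a comparison chosen after seeing the data, the per-library distance was lower by 5 bp on average (difference -5, two-sided exact sign-flip p = 0.031, n = 6). Stronger summits also hold more fragments. The sites had a median of 282.5, 386.5 and 114 fragments in the insulin lists, where the other shared regions had 59, 81 and 28, and 361.5, 202 and 104 in the untreated lists, where the others had 85, 50 and 28. The part of fragment number in the closer summits was not tested.

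**Figure D1:**
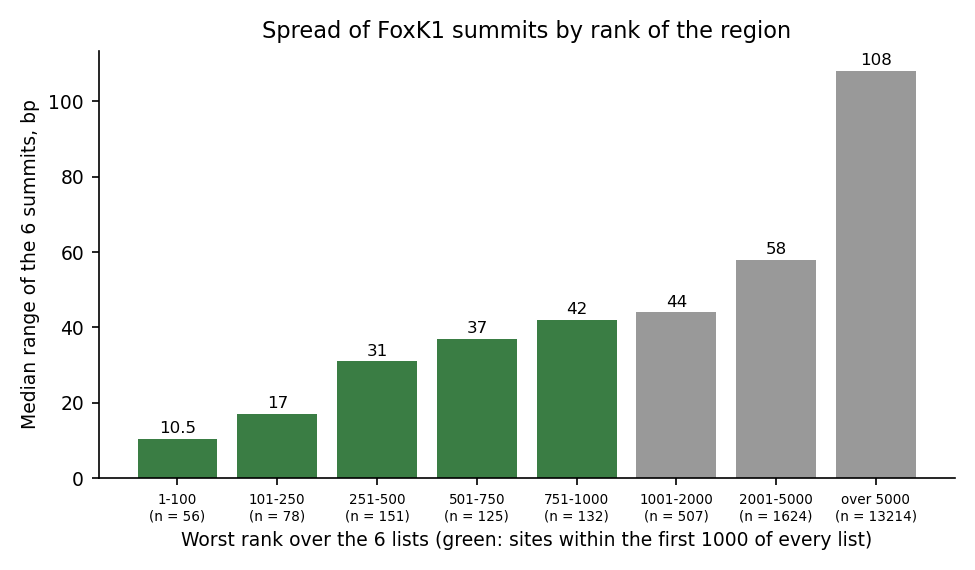
Median range in bp of the 6 library summits of a region, by the region's worst rank over the 6 lists, with the number of regions under each bar. The range grows with rank from 10.5 bp for the sites within the first 100 of every list to 42 bp near the limit of 1000, and reaches 108 bp in the regions ranked over 5000.

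At 3 sites the summits of all 6 libraries lay within 1 bp. At chromosome 20, 42838727 to 42840076, the summit was base 42839628 in all 3 insulin libraries and 42839627, 42839628 and 42839627 in the untreated libraries. The site ranked 12, 14 and 9 after insulin and 15, 21 and 8 without it. At chromosome 20, 62886618 to 62888088, the summits were 62887102, 62887103 and 62887103 after insulin and 62887103, 62887102 and 62887103 without it, although its ranks were only between 253 and 437. At chromosome 19, 17875546 to 17876475, the summits were 17876068 or 17876069 in every library, with ranks between 318 and 786. Agreement within 1 bp was thus not limited to the head of the lists. The 10 sites with the smallest span all lay within 2 bp.

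At 27 sites (4.98%) the summits spanned more than 100 bp, against 48.2% of the other shared regions. In 18 of the 27, one library stood apart and the other 5 lay within 100 bp of each other. The library apart was insulin replicate 1, 2 or 3 at 6, 2 and 3 sites and untreated replicate 1, 2 or 3 at 1, 1 and 5 sites. The widest case was chromosome 6, 43771721 to 43774619, where the summit lay at 43774225 in untreated replicate 3 and between 43772439 and 43772514 in the other libraries. At chromosome 19, 11199041 to 11201609, the summit of insulin replicate 1 was at 11201196 and those of the other libraries between 11199413 and 11199483. Each of these regions therefore holds more than 1 place of high signal, and the strongest place differed in 1 library.

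A different division was seen at chromosome 1, 155097993 to 155100594. Insulin replicate 1 and untreated replicate 1 had summits at 155099841 and 155099817. The other insulin libraries were both at 155098697, and the other untreated libraries at 155098688 and 155098682. The 2 positions thus went with the replicate number and not with insulin. At chromosome X, 48814765 to 48816219, the insulin summits were 48815735, 48815729 and 48815744, and the untreated summits 48815735, 48815159 and 48815183. At 44 sites (8.12%) the insulin and untreated summits did not overlap, where 8.91% of all shared regions had that pattern, so the sites lay near the background.

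Peaks at the sites were wider than elsewhere. The merged regions were 731 to 7417 bp wide with a median of 1411 bp, and together covered 0.871 Mb. The other shared regions had a median of 1081 bp, and a merged region spans every peak in it. The strongest peak of each site had a median width of 990, 1251 and 855 bp in the insulin libraries and 1093, 986 and 822 bp in the untreated libraries. In the other shared regions the median was 693, 880 and 575 bp in the insulin libraries and 771, 669 and 561 bp in the untreated libraries. The sites were wider in 6 of 6 libraries, at 999 ± 158 bp against 692 ± 121 bp (SD, n = 6). The mean difference was 308 bp (p = 0.031 by the same exact sign-flip test, the smallest value possible). The choice by −log10 q favours peaks with more fragments in every library, so this p-value is not independent of the choice. Against the regions with worst ranks 1001 to 2000, whose median was 866, 1060 and 770 bp in the insulin libraries and 964, 836 and 735 bp in the untreated libraries, the mean difference was 127 bp (two-sided exact sign-flip p = 0.031, n = 6, chosen after seeing the data). Fragment numbers moved with width as they did with summit distance, and their part was not tested.

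**Figure D2:**
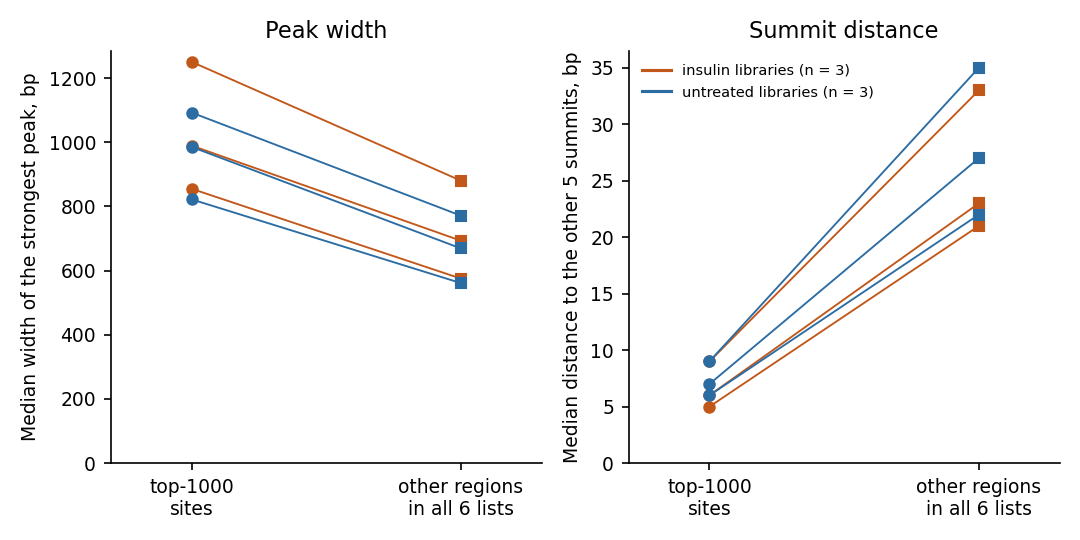
Median width of the strongest peak per region (left) and median distance of a library's summit from the median summit of the other 5 libraries (right), both in bp, for the 542 sites and for the other 15345 regions called in all 6 lists. Each line joins the values of 1 library. Peaks are wider and summits closer at the sites in all 6 libraries, and the insulin and untreated lines interleave.

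Most sites were single peaks. All 6 libraries had exactly 1 peak at 426 sites (78.6%), where 82.8% of the other shared regions had this form. Insulin replicates 1, 2 and 3 had several peaks at 80, 16 and 55 sites, and untreated replicates 1, 2 and 3 at 42, 44 and 60. The widest site, chromosome 7, 5462795 to 5470211, shows what this does to width. Insulin replicate 2 had 1 peak of 6923 bp there, while insulin replicates 1 and 3 had 5 and 4 peaks and the untreated libraries 5, 3 and 4. Its strongest summits still lay within 30 bp in all 6 libraries.

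Differences in width and summit distance between the treatments were within the spread of the libraries. Median peak width averaged 1032 ± 201 bp in the insulin libraries and 967 ± 136 bp in the untreated libraries (SD, n = 3 each). The difference of 65 bp gave p = 0.6 in a two-sided exact permutation test, which cannot go below 0.1 with 3 against 3. It was -44.3 bp without insulin replicate 2 and -13.7 bp without untreated replicate 3, so its direction rested on single libraries, and it was 144 bp at the other extreme of leaving out each library. Median summit distance averaged 6.67 ± 2.08 bp in the insulin libraries and 7.33 ± 1.53 bp in the untreated libraries (SD, n = 3 each), a difference of -0.67 bp (two-sided exact permutation p = 0.8). It was 0.33 bp without insulin replicate 2 and -1.83 bp at the other extreme.

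The sites were spread over chromosomes 1 to 20, 22 and X and 3 contigs. Chromosome 2 had 65, chromosome 6 had 48, chromosome 17 had 46, chromosome 1 had 45 and chromosome 16 had 42. Chromosome 13 had 1 site among its 322 regions called in all 6 lists. Chromosome 21 had 0 among 114, and a count of 0 there allows a share of up to 2.63%. Per 100 shared regions, chromosome 16 had 5.07 sites, chromosome 2 had 4.73, chromosome 6 had 4.58, chromosome 14 had 4.57, chromosome 17 had 4.48, chromosome 19 had 3.96 and chromosome 20 had 3.90, while the genome as a whole had 3.41. Most sites stood alone. The median distance to the nearest other site was 772 kb, 25 sites had another within 10 kb, and 336 of the 423 windows of 1 Mb with a site held only 1. The fullest window, chromosome 17, 41000001 to 42000000, held 5.

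Chromosomes 2, 6, 14, 16, 17 and 20 held 249 of the 542 sites (45.9%, exact binomial 95% interval 41.7% to 50.2%, counting error only), against 34.1% of all shared regions. These 6 chromosomes were taken from earlier results on the same lists, so the interval is a description and not a test. The share was alike in every library. Of the first 1000 peaks' regions, 45.2%, 45.5% and 44.7% lay there after insulin and 45.7%, 44.8% and 44.9% without it. The background that the peak caller expected at a summit was also higher there. At the sites its median on these chromosomes was 7.92, 12.4 and 4.85 fragments after insulin and 21.6, 14.7 and 6.18 without it. On the other chromosomes it was 5.50, 8.34 and 3.23 fragments after insulin and 14.7, 10.0 and 4.09 without it. At the sites the ratio was between 1.44 and 1.51 in the 6 libraries. In the other shared regions it was between 1.37 and 1.47, so the higher background was not particular to the sites. Relative to all shared regions, median background was 1.03 on chromosome 14 and 1.06 on chromosome 19, which is outside the set. HepG2 is known to carry extra copies of several chromosomes, and the part of copy number in this spread was not tested.

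The ranking measure mattered for this spread. With peaks ranked by the authors' fold enrichment instead of −log10 q, 373 regions met the rule, of which 347 were among the 542. These were 93.0% of the fold-ranked set and 64.02% of the sites. Chromosomes 2, 6, 14, 16, 17 and 20 held 29.2% of the fold-ranked set. Among the 195 sites that met the rule by −log10 q alone, 143 (73.3%) lay on those chromosomes, against 106 of the 347 (30.5%) that met both. Over chromosomes 1 to 22 and X, the number of sites per 100 shared regions had a Spearman correlation of 0.86 with the median background there when ranked by −log10 q, and -0.16 when ranked by fold (n = 23 chromosomes, a description, since all come from the same libraries). Fold divides by the background, so the contrast between these correlations cannot show the part of background in the spread. Among chromosomes 1 to 22 and X, chromosome X had the lowest background, 0.547 times that of all shared regions. It had 4 sites by −log10 q and 7 by fold.

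**Figure D3:**
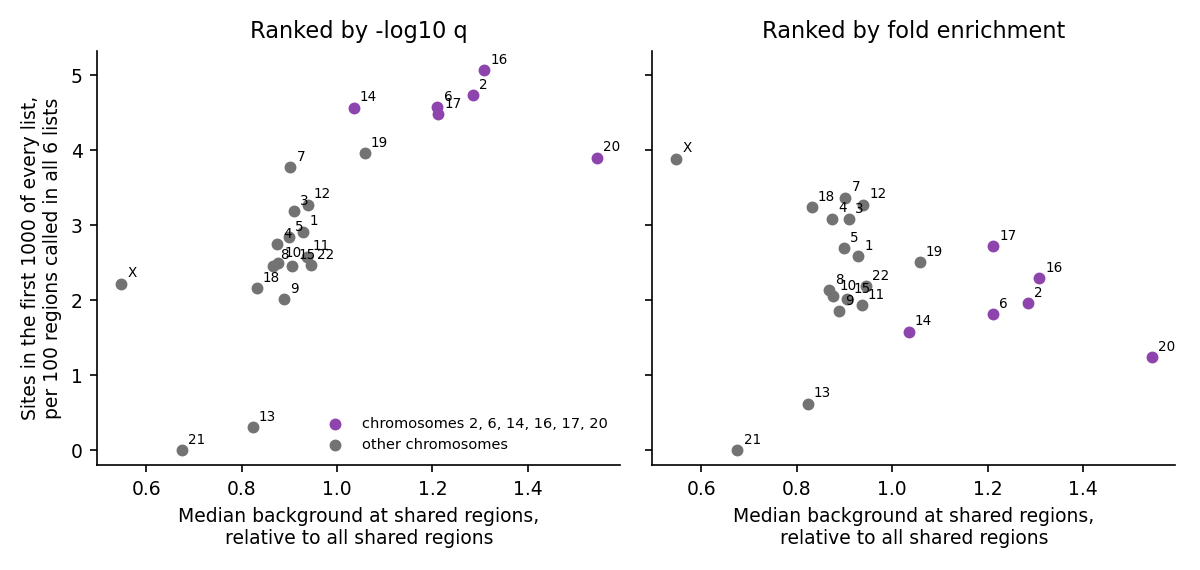
Number of sites within the first 1000 of every list per 100 regions called in all 6 lists, by chromosome, plotted against the median background at those regions relative to all shared regions (median of 6 libraries). Ranked by −log10 q (left), chromosomes 2, 6, 14, 16, 17 and 20 lie between 3.90 and 5.07. Ranked by fold enrichment (right), the same chromosomes lie between 1.24 and 2.73.

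Backgrounds were high at the 3 contig sites. At 29841 to 33608 of the contig chr7_gl000195_random, 23.9, 35.4 and 11.3 fragments were expected after insulin and 60.6, 45.2 and 19.0 without it. Its ranks by −log10 q were 72, 93 and 40 after insulin and 101, 124 and 64 without it, and its worst rank by fold was 2385. At 83961 to 90646 of chr17_gl000205_random and 6707 to 8632 of chrUn_gl000220 the worst fold ranks were 4554 and 4343. None of the 3 was in the fold-ranked set. The single site of chromosome 13, at 73355623 to 73356605, ranked 305, 405 and 330 after insulin and 579, 615 and 437 without it. The best site of chromosome X, at 119077165 to 119078175, ranked 350, 268 and 468 after insulin and 355, 171 and 535 without it.

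The order of the sites was kept between treatments about as well as between libraries of the same treatment. Over the sites, ranks of 2 lists had a mean Spearman correlation of 0.761 in the 6 same-treatment pairs (0.712 to 0.823) and 0.764 in the 9 different-treatment pairs (0.680 to 0.870). The highest was between insulin replicate 2 and untreated replicate 2. The same-minus-different difference of -0.00300 became 0.0217 when the 3 same-numbered pairs, all of different treatment, were left out. Because the rule caps every rank at 1000, part of this stability is given by the choice, and no test is attached. The worst rank of a site was a median of 2.50 times its best, and it was at most 5 times the best at 502 sites (92.6%). The steadiest site was chromosome 6, 132258973 to 132259918, with ranks 776, 764 and 786 after insulin and 827, 793 and 702 without it.

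Only 3 sites had a worst rank over 10 times the best, and each had insulin and untreated ranks that overlapped. At chromosome 3, 23986405 to 23988196, the ranks were 84, 6 and 792 after insulin and 22, 12 and 48 without it. Its summit had 370, 1101 and 72 fragments after insulin and 714, 475 and 167 without it. The summit of insulin replicate 3 was at base 23987456, and the others were between 23987360 and 23987367. The rank thus fell in 1 insulin library whose summit also lay apart. The other 2 sites were chromosome 9, 36399782 to 36402360, and chromosome 4, 78077664 to 78079650, where insulin replicate 1 had the worst rank, 460 and 564. These 3 were picked for their values.

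No site was called changed in rank by insulin. For this test the 15887 shared regions were ranked among themselves in each library, which removes the difference in list length, and log2 ranks were compared by limma with Benjamini-Hochberg adjustment over all of them. None of the 15887 regions was called at an adjusted p under 0.05 (0%), and the lowest adjusted p among the 542 sites was 0.998. The sites were chosen by ranks of the same measure, high in every list with and without insulin. A region that insulin moved far from the head of the lists could not be a site. The absence of calls at the sites is therefore partly given by the choice. The count over all 15887 regions does not rest on the rank limit, but each of them had to be called in every list. At an unadjusted p under 0.05 there were 17 sites (3.14%), against 594 regions (3.74%) in all. This count rested on single libraries and on the variance model. It was 10 without insulin replicate 1 and 31 without either insulin replicate 2 or untreated replicate 3, and 45 (8.30%, against 4.53% of all regions) without the variance trend. With the replicate number as a block, limma called 2 regions in all and 0 of the sites (lowest adjusted p = 0.162), and 55 sites (10.1%) had an unadjusted p under 0.05, against 7.74% of all regions. The insulin-minus-untreated difference in log2 rank had a median of -0.03 over the sites and -0.00 over all shared regions. It lay within 1 unit, a factor of 2 in rank, at 95.6% of the sites and 98.5% of all shared regions. A unit covers fewer places near the head of the lists, so these shares do not compare stability.

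**Figure D4:**
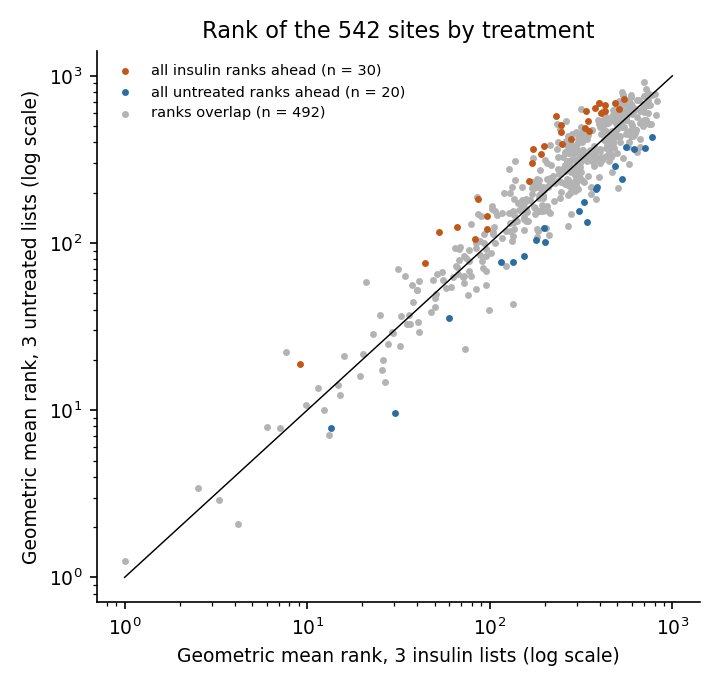
Geometric mean rank of each of the 542 sites in the 3 insulin lists (x axis) and the 3 untreated lists (y axis), both on log scales, where rank 1 is the strongest and the line marks equal ranks. Sites whose 3 insulin ranks were all ahead of the untreated ranks (30) or all behind (20) are coloured, and they lie on both sides of the line along its length.

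Ranks of the treatments did not overlap at 50 sites. All 3 insulin ranks were ahead at 30 sites (5.54%), where 4.63% of all shared regions had this order. All 3 untreated ranks were ahead at 20 sites (3.69%), where the background was 4.29%. Both shares were near the background, so these sites are described below without a claim of change.

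Among the 30 sites ahead after insulin, the largest difference was at chromosome 8, 126441271 to 126442903. Its ranks were 136, 397 and 228 after insulin and 744, 608 and 413 without it, a log2 rank difference of -1.31 ± 0.51 (SE, limma adjusted p = 0.998). Chromosome 6, 53412214 to 53413376, was the best-ranked site of that chromosome. It ranked 11, 10 and 7 after insulin and 24, 22 and 13 without it, with all 6 summits between bases 53412976 and 53412979. At chromosome 7, 148936367 to 148937220, the ranks were 43, 82 and 42 after insulin and 93, 131 and 129 without it. The gap between the groups was narrow in each of these sites next to the spread among the insulin libraries.

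Among the 20 in the other direction, chromosome 3, 185825055 to 185828458, had the largest difference. It ranked 35, 20 and 39 after insulin and 9, 11 and 9 without it, a log2 rank difference of 1.65 ± 0.45 (SE, limma adjusted p = 0.998, unadjusted p = 0.00137, the lowest among the sites). Its summit had 549, 964 and 205 fragments after insulin and 966, 607 and 243 without it, and the summits lay within 10 bp. At chromosome 5, 72839823 to 72841828, the ranks were 516, 248 and 312 after insulin and 117, 126 and 159 without it. The untreated ranks of both sites lay close together, and the insulin ranks were more spread.

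**Figure D5:**
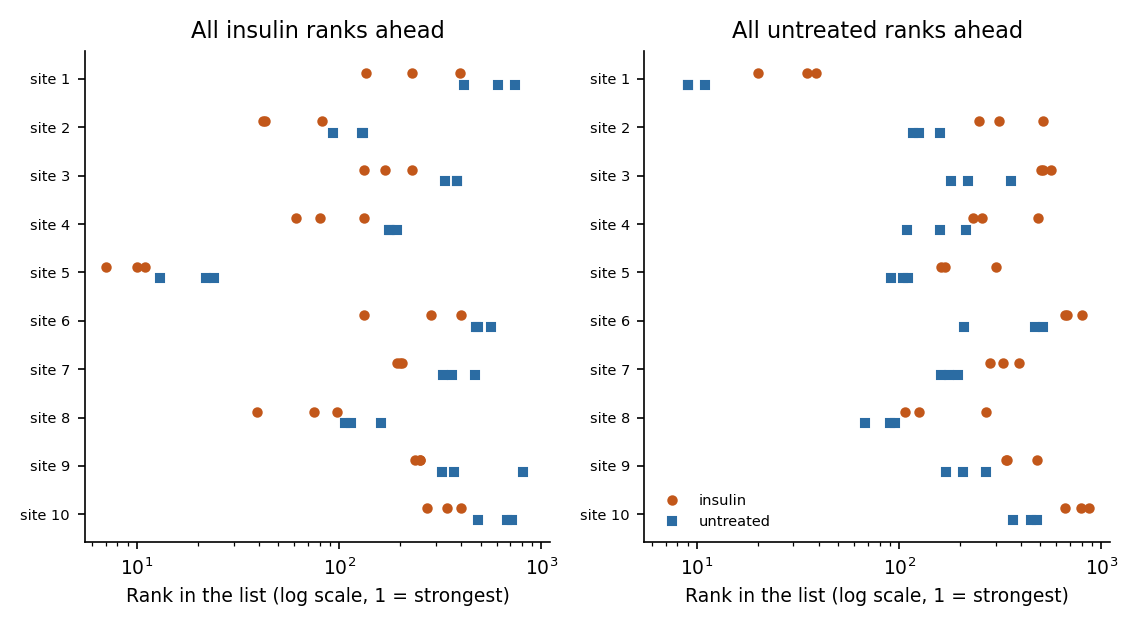
Ranks (log scale, 1 is the strongest) in the 3 insulin lists (circles) and the 3 untreated lists (squares) at the 10 sites with the largest difference in each direction among those whose ranks did not overlap. Sites run down the page by size of the difference, the first on the left being chromosome 8, 126441271 to 126442903, and on the right chromosome 3, 185825055 to 185828458. None passed the adjusted threshold.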

How the data were processed

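Reads were handled on hg19 with MACS2, SAMtools, Bowtie2 and fastp, per the submitters' processing notes. No source used here gives versions, the peak threshold or the use of inputs as control. The authors deposited 1 list per library, since peak names carry a single library's name. The deposited fold is a linear ratio of a summit over its background. Significance was deposited as −log10 of p and of q, which depend on depth. The deposited score, a whole number, was not used.

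Peaks sharing 1 bp were merged, and a region took the best-ranked peak of each library, ties taking the smallest rank. Fragments and background were solved from fold, (fragments + 1) over (background + 1), and a Poisson upper-tail p. This gave a whole number for 100% of peaks, to within 0.0005 of the deposited value (relative above 10). Methods were tested on simulated data with large planted changes of signal. This does not show that changes of the size seen at the sites would be called.

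The members, lists and tests were chosen with earlier results of these data known. Named regions followed a rule written with the tests (lowest mean rank, best of each chromosome, both sides of the limit, smallest and largest summit span, largest rank difference each way, widest), except where stated. The main tests between treatments were unpaired, and replicate numbers were taken to pair libraries only in alternatives. This pairing came from the data and not the labels: deviations from the group mean log2 rank correlated at 0.162, 0.374 and 0.373 for same-numbered libraries. For differently numbered libraries the values lay between -0.385 and 0.109. Promoter and motif shares were not computed, since they need hg19. Alternatives covered ranking, limits, region building, libraries and chromosomes. Tests used limma 3.58.1 in R 4.3.3 and scipy 1.17.1 in Python 3.11.15, tables pandas 2.3.3 and numpy 2.4.6, and plots matplotlib 3.10.9.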

Additional observations from a re-analysis of the deposited data

How the results depend on the processing

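The number of sites was 285 at a rank limit of 500 and 1049 at a limit of 2000. It was 293 without chromosomes 2, 6, 14, 16, 17 and 20, and each of these counts moved by construction. In the other alternatives it stayed within 1.5 times of 542. With each library left out it was 553 to 579, where dropping a list relaxes the rule. The share on those chromosomes was 29.2% with fold ranking. In the other alternatives it lay between 44.5% and 46.7%, and between 45.3% and 46.1% with each library left out. These alternatives reuse many of the same regions and libraries, so the close values are a description. The cause of the lower share with fold ranking was not tested. The insulin-minus-untreated difference in peak width ranged from -44.3 to 144 bp with each library left out and that in summit distance from -1.83 to 0.33 bp, and the summit difference was 0 with fold ranking. Against other shared regions, width was higher by 288 to 345 bp and summit distance lower, at -21.9 to -19.3 bp, with each library left out, where 0.0625 is the smallest p for 5 libraries; without replicate 3 in both treatments, chosen after seeing the data, they were 406 and -18.8 bp (smallest p 0.125). No site was called changed in rank in any alternative, within the limit that the rule sets on rank. The same-minus-different-treatment correlation was -0.00300, between -0.0219 and 0.0202 with each library left out, and 0.0217 without same-numbered pairs. With the replicate block, width and summit differences stayed 65 and -0.67 bp (exact sign-flip p = 0.75 and 1, where 0.25 is the smallest for 3 pairs), and no call at the sites changed. Promoter and motif windows were not run.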

Other observations

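Away from the 542 sites, 9 regions ranked within 1000 in all 3 insulin lists and in none of the untreated lists, and 5 showed the reverse. These regions were chosen by their ranks, so no test is given. Of the 9, chromosome 3, 180319381 to 180320503, ranked 825, 959 and 673 after insulin and 1994, 1389 and 1535 without it. Chromosome 5, 172198930 to 172199886, ranked 718, 985 and 435 after insulin and 1306, 1189 and 1535 without it. Of the 5, chromosome 1, 237025014 to 237026706, ranked 2665, 2140 and 1413 after insulin and 561, 619 and 267 without it. All 14 regions were called in all 6 libraries, and 2 of the 5 lay on chromosome 20 and 1 on a contig.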
